A study of Mus musculus with 50 samples.

Results

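KO1 and KO2 are a pair of mouse embryonic stem (ES) cell lines that both carry the genotype NSD1-/-, and here their RNA was compared directly, KO1 against KO2, with no wild type library in the comparison. Both derive from J1, a line of the strain 129S4/SvJae, and both were untreated and grown on gelatin in serum with the cytokine LIF. Each line had 2 libraries of total RNA, so 4 libraries were compared. All genes with enough counts were taken: 4702 of the 37310 annotated genes passed the count filter. Genes on chromosomes 6 and 11 are given apart from those on the other chromosomes. How the lines were made, how many clones each holds, and whether its libraries were grown as separate cultures are not stated in the labels. The p-values below therefore reflect spread between libraries that may be technical. The series holds 50 samples, and wild type libraries and chromatin assays were left out of this comparison. Without wild type, a difference between the lines does not show which of them departs from normal J1 cells.

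NSD1 is a methyltransferase that places dimethyl marks on lysine 36 of histone H3, a mark known to attract the DNA methyltransferase DNMT3A and to limit the Polycomb mark on lysine 27. Mouse ES cells take much of their one-carbon supply from threonine, which the enzyme TDH breaks down. Imprinted genes are transcribed mainly from a single parental allele, in a state held by DNA methylation.

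The total count was 1168961 and 1194285 in the KO1 libraries and 1150089 and 1285487 in the KO2 libraries. AY036118, a locus on chromosome 17 that overlaps ribosomal RNA sequence, took 32.3% to 37.2% of each library. The tables were made with a strand setting under which abundant genes hold few counts: Actb, which encodes beta-actin, held 104 to 144 per library, and the pluripotency factor Pou5f1 16 to 23. Outside AY036118, all 50 genes of highest count overlap an exon on the other strand. The counts were therefore read as fragments from the strand opposite to the counted gene, and each counted gene is named with the gene whose exons lie opposite it, in mm9. Where none is annotated, the tables do not tell which transcript gave the fragments. The ES cell marker locus Gm17232, opposite Tdh, held 2045 to 5888 counts. On the counted strand, the fibroblast markers Col1a2, Col3a1, Thy1 and Postn held 0 counts in all 4 libraries, as did the primitive endoderm markers Gata4, Gata6, Sox17, Sox7 and Dab2. Of the other fibroblast markers, Col1a1 held 0 to 2 counts, Vim 1 to 12 and Fn1 31 to 46, while Apol7d, opposite Fn1, held 1311 to 1528 and was not called (adjusted p 0.439). Some ES cell markers were also low on the counted strand: Tdgf1 held 1 count in each library, Dppa4 1 to 3 and Dppa5a 4 to 7, though Sox2 held 66 to 100. Because fragments were read as coming from the other strand, low counts of a marker do not show that its cell type was absent. Values in CPM are counts scaled to the effective library size.

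Nsd1 (chromosome 13, 55311143 to 55419686, plus strand), the targeted gene, held 55 and 38 counts in the KO1 libraries and 27 and 21 in those of KO2. The log2 fold change of KO1 against KO2 was 0.90 ± 0.28 (SE, n = 2 libraries per line; edgeR adjusted p 0.0250), and the call was lost without KO1 replicate 1 or KO2 replicate 2. No annotated exon lies opposite Nsd1, so these counts do not check the genotype that the labels give.

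The lines differed at 939 of the 4702 tested genes, 20% of them, with 385 higher in KO1 (8.19%) and 554 higher in KO2 (11.8%) at an adjusted p under 0.05. At 302 of them the log2 fold change was 1 or more in size, 184 higher in KO1 and 118 higher in KO2. The 2 libraries of one line lay beyond both of the other at 2804 genes, 59.6% of those tested. Calls differed in stability: 400 of the 939 were made again in each of the 4 fits that left out 1 library. Without KO1 replicate 1 the counts of calls were 181 higher in KO1 and 356 higher in KO2, and without KO1 replicate 2 they were 218 and 384. In bulk RNA, fewer cells of a type and less RNA per cell cannot be told apart. Positive log2 fold changes below mean higher in KO1.

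Chromosomes 6 and 11 stood lower in KO1 than in KO2 along almost their whole length. Of 242 tested genes on chromosome 6, 76 were higher in KO2 (31.4%) and 7 were higher in KO1 (2.89%). Of 536 on chromosome 11, 128 were higher in KO2 (23.9%) and 4 in KO1 (0.746%). On the other chromosomes the 3924 tested genes split nearly evenly at the scaling used, with 350 higher in KO2 (8.92%) and 374 in KO1 (9.53%). With scaling factors from genes outside chromosomes 6 and 11, the counts there were 456 and 314. With factors from genes with an exon opposite they were 224 and 516, so the even split depends on the scaling. Of the calls with a log2 fold change of 1 or more in size, 60 were higher in KO2 and 179 in KO1. The median log2 fold change was -0.395 on chromosome 6 and -0.314 on chromosome 11, against 0.082 on the others, so that the median gene in KO1 stood at 0.718 and 0.760 times its KO2 level relative to the other chromosomes. No other chromosome's median, the mitochondrial genome included, lay below -0.002 (chromosome 16), and the highest was 0.175 (chromosome 15).

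Each library showed the same order. The median level of chromosome 6 genes relative to all tested genes was -0.193 and -0.188 on the log2 scale in the KO1 libraries and 0.188 and 0.231 in the KO2 libraries. For chromosome 11 the values were -0.192 and -0.160 in KO1 and 0.159 and 0.177 in KO2. Of the counts outside AY036118, the share that fell on chromosome 6 was 3.95% and 3.99% in KO1 and 5.06% and 5.17% in KO2. On chromosome 11 it was 11.8% and 11.9% in KO1 and 15.0% and 15.2% in KO2. In neither share did the libraries of the lines overlap, and the exact two-sided permutation p of 0.333 for each is the smallest that 2 libraries against 2 allow.

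**Figure D1:**
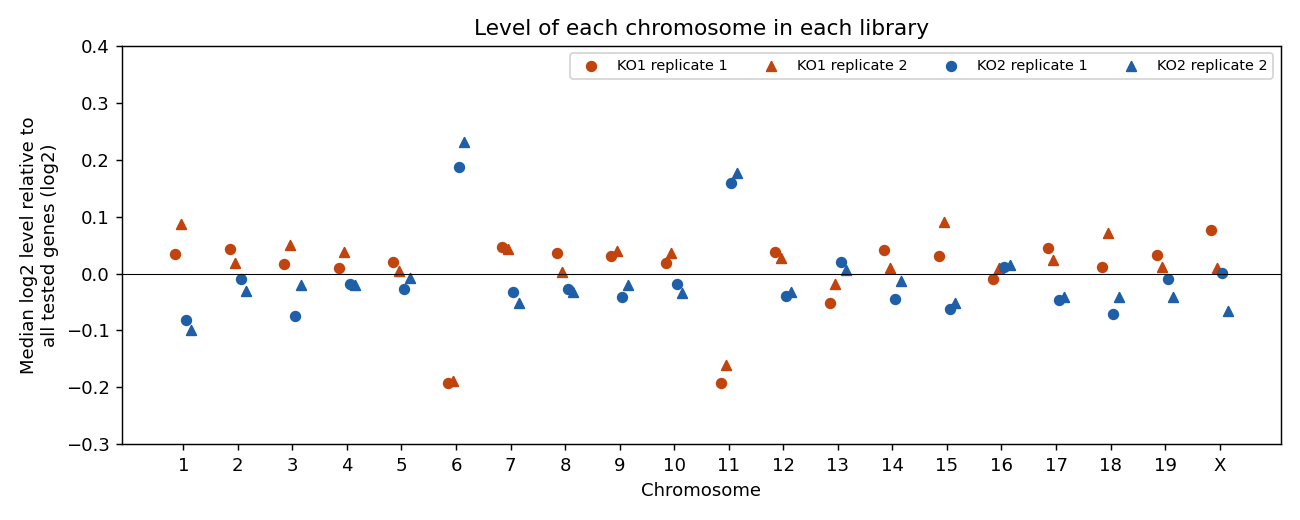
Median log2 level of the tested genes of each chromosome (horizontal axis) relative to all tested genes, in each of the 4 libraries (circles and triangles are the replicates of a line). The KO1 and KO2 points separate widest on chromosomes 6 and 11, from -0.193 to 0.231 on chromosome 6.

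Along chromosome 6, tested genes were taken in 9 runs of 26 or 27 consecutive genes. All 9 had a median below 0, from -0.540 in the last run (136756769 to 148939953) to -0.078 in the run from 118379188 to 124813935. Along chromosome 11, all 21 runs of 25 or 26 genes lay below 0, from -0.478 (51437173 to 58752418) to -0.051 (115475492 to 117652627). Of 146 such runs on the other chromosomes, 35 lay below 0. The lowest was -0.362, on chromosome 13 from 23713624 to 41096520, and the highest was 0.489, at the end of chromosome 15. The runs at both ends of chromosomes 6 and 11 lay below 0. Relative to the median of the other chromosomes, the run nearest 0 stood at -0.161 on chromosome 6 and -0.133 on chromosome 11.

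**Figure D2:**
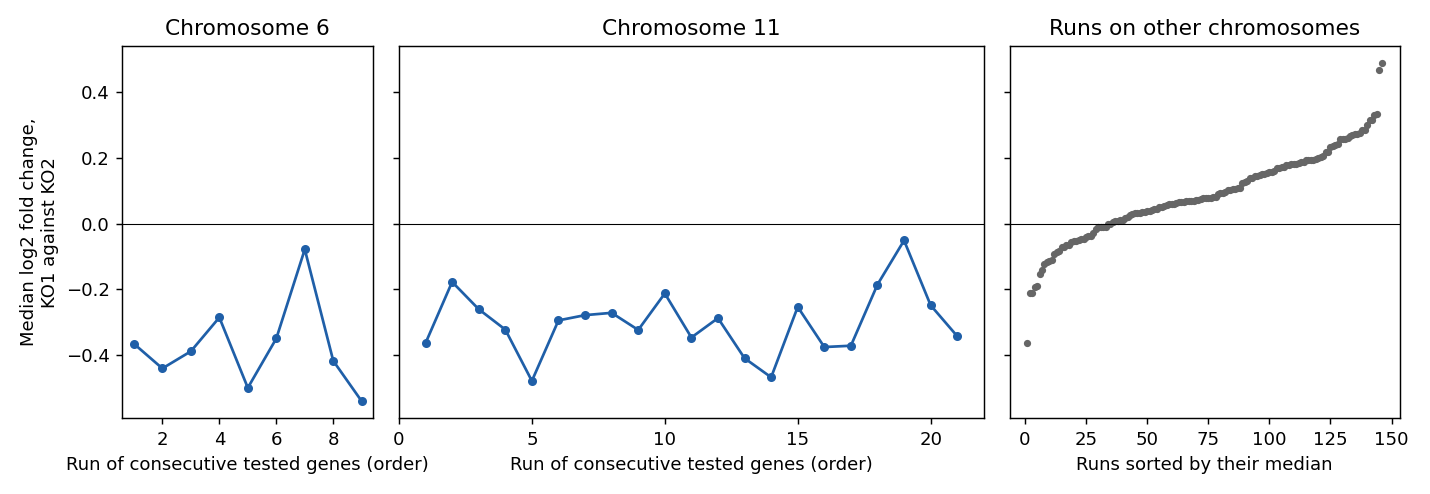
Median log2 fold change, KO1 against KO2, of runs of at least 25 consecutive tested genes in order along chromosomes 6 and 11, and of the runs on the other chromosomes sorted by their median. All 9 and all 21 runs of chromosomes 6 and 11 lie below 0, against 35 of 146 elsewhere.

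On chromosome 6, the most abundant loci that differed were all higher in KO2. Gm15884 (opposite Phb2, which encodes the mitochondrial scaffold protein prohibitin 2) stood at 2653 and 2686 CPM in KO1 and 4103 and 4068 in KO2. Gm5577 (opposite the linker histone gene H1fx) stood at 1582 and 1746 CPM in KO1 and 2679 and 2814 in KO2. 2410003K15Rik (49023794 to 49036750), opposite Igf2bp3, an RNA-binding protein of growth-factor transcripts, stood at 764 and 828 CPM in KO1 and 1688 and 1729 in KO2. Each of these loci was about evenly lower in both KO1 libraries, with log2 fold changes of -0.61 ± 0.04, -0.72 ± 0.05 and -1.10 ± 0.05. Igf2bp3 itself, counted on the other strand, held 60 and 53 counts in KO1 and 80 and 91 in KO2 (-0.65 ± 0.18, adjusted p 0.0137, not called without KO1 replicate 1, KO1 replicate 2 or KO2 replicate 2).

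Several of the larger differences toward KO2 on chromosome 6 lay at low counts. Gm14573, opposite the deacetylase gene Hdac11, held 11 and 7 counts in KO1 and 28 and 36 in KO2 (-1.87 ± 0.35). Gm4876, opposite Tes, a gene for a focal adhesion protein, held 16 and 18 in KO1 and 55 and 59 in KO2 (-1.79 ± 0.26). 2810488G03Rik, with no exon opposite, held 8 and 6 against 27 and 28 (-2.01 ± 0.38). Vax2os1 held 3 counts in KO1 and 26 in KO2, a ratio of 8.99 with an exact 95% interval of 2.75 to 46.4 (counting error only), and lost its call without KO1 replicate 2. Gadd45a (opposite E230016M11Rik), a growth arrest gene induced by DNA damage, held 3 and 6 counts against 14 and 13, and was called in none of the fits that left out 1 library. The overlapping pair Loxl3, a lysyl oxidase of the extracellular matrix, and Htra2, a mitochondrial protease, was lower in KO1 on both strands, by -1.18 ± 0.07 and -0.99 ± 0.07. Bid, opposite the apoptosis gene Bcl2l13, had 103 and 108 counts in KO1 and 201 and 208 in KO2 (-1.01 ± 0.13). Gm17629, opposite Ezh2, the Polycomb methyltransferase, differed by -0.44 ± 0.06, close to the median of the chromosome.

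The 7 chromosome 6 genes called higher in KO1 were Gm15401, Tcf7l1, Copg2, Emg1, Tmem40, Pzp and BC060267, and the last lost its call in each fit that left out 1 library. The smallest adjusted p among them was that of Gm15401 (72579282 to 72587711, plus strand), a locus within Tcf7l1, which encodes a TCF repressor of Wnt target genes and of Nanog. Gm15401 stood at 560 and 660 CPM in KO1 and 245 and 226 in KO2, a log2 fold change of 1.38 ± 0.09 (adjusted p 3.54e-10). Tcf7l1, counted on its own strand, held 13 and 19 counts in KO1 and 2 and 8 in KO2 (1.60 ± 0.53, adjusted p 0.0346, lost without KO1 replicate 1, KO1 replicate 2 or KO2 replicate 1). Copg2, opposite the imprinted gene Mest, is described with the imprinted genes below. Emg1, a ribosome assembly gene, had 37 and 41 counts against 16 and 22, and lost its call in 3 of the 4 fits that left out 1 library. Tmem40 held 24 counts in KO1 and 1 in KO2, a ratio of 23.1 (exact 95% interval 3.77 to 952), and its call was lost without KO1 replicate 1 or 2.

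On chromosome 11, abundant loci were again higher in KO2, by unequal amounts. Tlcd1, opposite the ribosomal protein gene Rpl23a, stood at 9114 and 9803 CPM in KO1 and 15605 and 15143 in KO2, a log2 fold change of -0.70 ± 0.04 (adjusted p 1.01e-10). Agxt2l2, opposite the RNA-binding protein gene Hnrnpab, stood at 7361 and 7802 CPM in KO1 and 8917 and 9115 in KO2 (-0.25 ± 0.04). Mfsd11, opposite the splicing factor gene Srsf2, stood at 4060 and 3913 CPM in KO1 and 4684 and 4644 in KO2 (-0.23 ± 0.04). The log2 difference at Tlcd1 was therefore larger than the chromosome's median and those at Agxt2l2 and Mfsd11 smaller.

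Loci opposite genes of the Wnt pathway were among those of chromosome 11 that stood lower in KO1. Gm11670 (108800624 to 108803329), opposite Axin2, a scaffold of the beta-catenin destruction complex and a Wnt target, stood at 574 and 512 CPM in KO1 and 1078 and 1104 in KO2 (-1.01 ± 0.06, adjusted p 2.42e-10). 4732444A12Rik, opposite Notum, which encodes an enzyme that inactivates Wnt ligands, stood at 424 and 383 CPM in KO1 and 801 and 777 in KO2 (-0.97 ± 0.07). Gm11768, which overlaps Notum and Myadml2, differed by -1.05 ± 0.08. Dvl2, a Wnt pathway gene opposite Acadvl, a gene of fatty acid oxidation, held 168 and 155 counts in KO1 and 387 and 377 in KO2 (-1.29 ± 0.10). Read from the strand opposite, these fragments would be those of Acadvl, which is not on the Wnt list. Over the whole Wnt list, 4 of 8 loci matched by the gene opposite were higher in KO2, the fourth being Oraov1, opposite the cyclin gene Ccnd1 on chromosome 7 (-0.30 ± 0.05), and 1 was higher in KO1, Gm15401 opposite Tcf7l1. Of these, 4732444A12Rik and Gm11768 both overlap Notum and so are not independent. Of all tested genes with an exon opposite, 20.1% were higher in KO2 and 7.69% in KO1, and on chromosome 11, where 4 of the 8 Wnt loci lie, 36.9% were higher in KO2. By the symbol of the counted gene, 2 of 13 were higher in KO1, Tcf7l1 and Nkd2, and 1 in KO2, Dvl2. Nkd2 lost its call without KO1 replicate 2.

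Other chromosome 11 loci had larger differences. Csnk1d (120819779 to 120852644), opposite the lactate transporter gene Slc16a3, stood at 262 and 318 CPM in KO1 and 754 and 646 in KO2 (-1.27 ± 0.09, adjusted p 9.87e-10). Gm11399, opposite Sfi1, held 7 and 15 counts in KO1 and 58 and 70 in KO2 (-2.58 ± 0.31), and Gm12224, opposite the fatty acid activating enzyme gene Acsl6, held 21 and 26 against 65 and 85 (-1.72 ± 0.23). Gm12260, a pseudogene whose fragments may belong to a related copy, held 2 and 3 counts against 25 and 19 (-3.13 ± 0.52). Clint1 and 1700003D09Rik (opposite Ppp1r1b) also stood higher in KO2, at 26 or fewer counts per library, and lost their calls without KO1 replicate 2, the former also without KO2 replicate 1 and the latter also without KO1 replicate 1 or KO2 replicate 2. Gm16706, opposite the Polycomb subunit gene Suz12, differed by -0.52 ± 0.05.

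Only 4 chromosome 11 genes were called higher in KO1: Commd1, Rnf213, Zkscan17 and Vps53. Commd1 is opposite the imprinted gene Zrsr1 and kept its call in all 4 fits that left out 1 library. Rnf213 lost its call without KO1 replicate 2 or KO2 replicate 2, and Vps53 without KO1 replicate 1, KO1 replicate 2 or KO2 replicate 1. Zkscan17 held 18 and 17 counts in KO1 and 5 and 8 in KO2 and lost its call in each fit that left out 1 library.

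**Figure D3:**
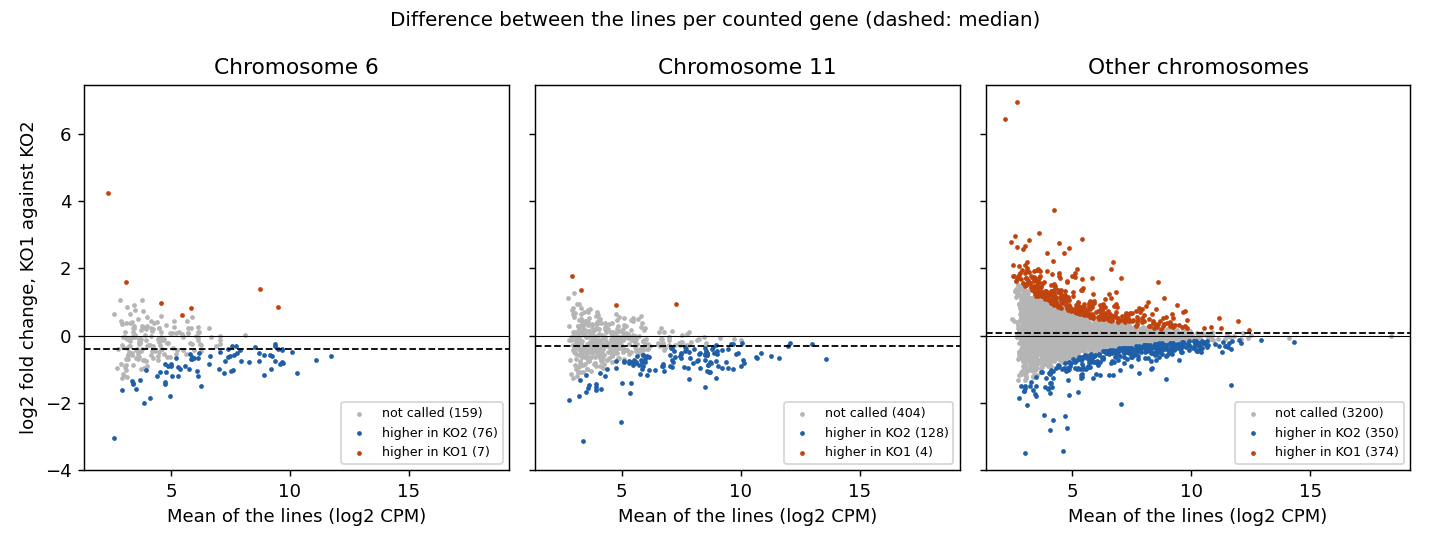
Log2 fold change of each tested gene, KO1 against KO2, against the mean of the lines in log2 CPM, for chromosome 6, chromosome 11 and the others; colours mark the called genes and dashed lines the medians. Called genes on chromosomes 6 and 11 lie almost entirely below 0 (76 of 83 and 128 of 132). Those elsewhere lie on both sides (374 above and 350 below), in a split that depends on the scaling.

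Outside chromosomes 6 and 11, the most significant difference lay at the threonine dehydrogenase locus. Gm17232 (chromosome 14, 64112536 to 64118709, plus strand), opposite Tdh, stood at 1766 and 1714 CPM in KO1 and 4784 and 4817 in KO2. The log2 fold change was -1.46 ± 0.04 (adjusted p 9.13e-16), and Tdh on its own strand differed the same way, with 10 and 9 counts in KO1 and 35 and 21 in KO2 (adjusted p 0.00496, lost without KO1 replicate 1, KO1 replicate 2 or KO2 replicate 1). All 4 measured loci opposite genes of the threonine, serine and one-carbon list were higher in KO2, with a median of -1.205. Among all tested genes with an exon opposite, 20.1% were higher in KO2 and the median was -0.085. Besides Gm17232, the 4 include Gm15622, opposite Bhmt, which remethylates homocysteine with betaine, and AW495222, opposite Dmgdh, which demethylates dimethylglycine. The last is Smcr8, opposite Shmt1, the cytosolic serine hydroxymethyltransferase. By the symbol of the counted gene, Tdh alone of 5 was called. Smcr8 lies on chromosome 11, where 36.9% of tested genes with an exon opposite were higher in KO2, and differed by -0.95 ± 0.12. The list was chosen with earlier results of these data known, and Gm15622 and AW495222 are neighbours. Its count is therefore a description and not a test.

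Bhmt and Dmgdh are neighbours, and the enzyme encoded by Dmgdh acts on the product of that encoded by Bhmt. Gm15622 (chromosome 13, 94395337 to 94398588) stood at 53.6 and 49.4 CPM in KO1 and 218 and 210 in KO2 (-2.05 ± 0.14, adjusted p 4.79e-10). AW495222 held 248 and 177 counts in KO1 and 290 and 334 in KO2 (-0.61 ± 0.12, adjusted p 6.26e-04). Gm17447, opposite the lysosomal sulfatase gene Arsb, was the only other tested gene of the stretch (94395337 to 94712970). It held 6 and 10 counts in KO1 and 17 and 20 in KO2, and its call toward KO2 was lost in each fit that left out 1 library. The promoter windows of both genes are printed because these neighbours differed in the same direction. The sequences are those of RefSeq on GRCm38.p6, from 250 bases before to 50 after the start, on the gene's strand, with each CG in capitals; their coordinates are in that build and not in mm9.
Bhmt promoter, chr13:93637709-93638008, minus strand: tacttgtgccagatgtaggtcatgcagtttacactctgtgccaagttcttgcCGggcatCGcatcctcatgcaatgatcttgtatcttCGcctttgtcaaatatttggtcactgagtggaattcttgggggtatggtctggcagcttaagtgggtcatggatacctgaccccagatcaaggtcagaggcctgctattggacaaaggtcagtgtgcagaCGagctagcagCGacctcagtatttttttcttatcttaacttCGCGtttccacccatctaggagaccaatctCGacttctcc
Dmgdh promoter, chr13:93674186-93674485, plus strand: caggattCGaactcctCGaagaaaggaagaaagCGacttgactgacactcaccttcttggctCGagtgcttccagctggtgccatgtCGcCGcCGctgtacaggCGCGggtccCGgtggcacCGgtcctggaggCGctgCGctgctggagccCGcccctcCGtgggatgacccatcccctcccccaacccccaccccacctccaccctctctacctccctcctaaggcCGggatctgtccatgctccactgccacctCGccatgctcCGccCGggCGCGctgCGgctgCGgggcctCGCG
The Bhmt window holds 8 CG and the Dmgdh window 25. Over the 32851 RefSeq promoters of the same 300 bases the median is 7, and 94.6% hold at least 1. CG reads the same on both strands. Whether the number of CG bears on the difference between the lines was not tested, and methylation was not measured here.

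Called genes of the same direction lay near each other at 49 places outside chromosomes 6 and 11, 27 of them higher in KO2 and 22 higher in KO1. These held 174 of the 724 called genes there. A place here means at least 3 called genes, each within 1 Mb of the next, with no call of the other direction between. Tested genes that were not called may lie between them, as on chromosome 7 (52198592 to 52677224), where 3 of 20 tested were called. How many places an even spread of the calls would give was not tested. The Tdh locus is part of a place on chromosome 14 (63379338 to 64127929), where 5 of 6 tested genes were higher in KO2. Besides the Tdh pair these were 4931440J10Rik, with 52 and 57 counts in KO1 and 116 and 120 in KO2 (-1.16 ± 0.17), Gm17640, opposite Wdfy2, at -1.33 ± 0.29, and Fdft1, opposite the cathepsin gene Ctsb, at -1.54 ± 0.38. Fdft1 lost its call without KO1 replicate 1. The exception, Ctsb, stood at 41 and 26 counts in KO1 and 24 and 46 in KO2.

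A second stretch of chromosome 14 (56200353 to 58423817) held 7 genes higher in KO2 among 17 tested. Gm17588, opposite Nynrin, held 2636 and 2468 counts in KO1 and 3183 and 3743 in KO2 (-0.49 ± 0.05). Gm16973, opposite Mphosph8, which encodes a chromodomain protein of the HUSH silencing complex, held 161 and 180 against 341 and 374 (-1.12 ± 0.10), and Mphosph8 on its own strand differed by -1.43 ± 0.33. Fam158a (-0.99 ± 0.09), Gm16573 (opposite Parp4, -1.68 ± 0.27) and Sap18 (-1.26 ± 0.22), which encodes a subunit of the Sin3 deacetylase complex, were also higher in KO2. 2310043D23Rik, opposite Ift88, completed the run and lost its call in each fit that left out 1 library.

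On chromosome 4 (140857155 to 141382075), 5 of 8 tested genes were higher in KO2. Among them, AI507597 (opposite Tmem82) held 61 and 55 counts in KO1 and 92 and 113 in KO2 and differed by -0.87 ± 0.18. Casp9, the initiator caspase gene, and Cela2a opposite it were both higher in KO2, at -1.52 ± 0.45 and -0.93 ± 0.21; Casp9 lost its call without KO1 replicate 2 or KO2 replicate 1. Epha2, an ephrin receptor gene, had at most 14 counts in a library and lost its call in each fit that left out 1 library.

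Most called genes in places where KO1 was higher had no exon overlap of at least 50 bases on the other strand. On the chromosomes searched for places, 374 genes were called higher in KO1. Of these, 174 had no exon opposite, 179 had an overlap of at least 50 bases and 21 had a shorter one. Whether the places differ from this split was not tested. At the end of chromosome 15 (102774493 to 103360483), 3 of 4 tested genes were higher in KO1. Gtsf1, a gene of the piRNA pathway in germ cells, held 36 and 38 counts in KO1 and 8 and 7 in KO2 (2.23 ± 0.35). Pde1b, a phosphodiesterase gene, held 19 and 29 against 7 and 5 (1.93 ± 0.43) and lost its call without KO1 replicate 2. Gm16258 (0.98 ± 0.29) lost it in 3 of the 4 fits that left out 1 library. Nsd1 lies in another such place (chromosome 13, 54287498 to 55464144) with Hrh2, Rab24 and Lman2, 4 called of 11 tested. The calls of Hrh2 and Lman2 were lost without KO1 replicate 1 or KO2 replicate 2, and that of Rab24 without KO1 replicate 1, KO1 replicate 2 or KO2 replicate 1.

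Imprinted loci differed in both directions. By the symbol of the counted gene, 6 of 11 measured members were higher in KO1 and 1 in KO2, where 8.19% and 11.8% of all tested genes were, with a median log2 fold change of 0.623 against 0.015 over all tested genes. By the gene opposite, 4 of 9 were higher in KO1 and 3 in KO2 (median -0.266), against 7.69% and 20.1% of all tested genes with an exon opposite. Most of these genes are counted in both groups, since imprinted genes often overlap each other.

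Rtl1 (chromosome 12, 110827404 to 110838540, minus strand), a retrotransposon-derived gene of the Dlk1 to Meg3 domain, lies opposite the microRNA genes Mir433, Mir127, Mir434, Mir431, Mir136 and Mir432, which are made from the maternal allele. Rtl1 stood at 633 and 526 CPM in KO1 and 196 and 191 in KO2, a log2 fold change of 1.58 ± 0.09 (adjusted p 1.05e-10). In the same domain, Gm17639, opposite the maternally expressed long RNA gene Meg3, held 297 and 241 counts in KO1 and 165 and 162 in KO2 (0.66 ± 0.12). Both loci were higher in both KO1 libraries than in either KO2 library.

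Copg2 (chromosome 6, 30697554 to 30846794), opposite the paternally expressed gene Mest, stood at 930 and 926 CPM in KO1 and 507 and 522 in KO2 (0.85 ± 0.06, adjusted p 1.01e-09). Mest on its own strand was at 59 and 49 counts in KO1 and 62 and 106 in KO2, and its call toward KO2 was lost in 3 of the 4 fits that left out 1 library. Commd1 (chromosome 11, 22734744 to 22882382), opposite the paternally expressed gene Zrsr1, stood at 221 and 193 CPM in KO1 and 119 and 96.5 in KO2 (0.95 ± 0.13, adjusted p 1.25e-05). Copg2 and Commd1 thus ran against the direction of chromosomes 6 and 11. Zrsr1 on its own strand held 22 to 30 counts and was not called (-0.29 ± 0.28).

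At the Gnas cluster on chromosome 2 the strands moved in opposite directions. AF085738, opposite Gnas, which encodes the stimulatory G protein subunit, stood at 2716 and 2850 CPM in KO1 and 3689 and 3723 in KO2 (-0.41 ± 0.04, adjusted p 4.75e-07). Gnas on its own strand, opposite AF085738 and the antisense transcript gene Nespas, held 191 and 137 counts in KO1 and 69 and 76 in KO2 (1.12 ± 0.16, adjusted p 3.21e-05). H13 (0.99 ± 0.23) was higher in KO1, as was Plagl1 (0.62 ± 0.20), which lost its call in each fit that left out 1 library. Grb10, an imprinted adaptor of insulin receptor signalling, held 61 and 92 counts in KO1 and 76 and 100 in KO2 and was not called (-0.25 ± 0.20).

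The largest imprinted difference ran toward KO2. AL672259.1 (chromosome 2, 157388097 to 157388183, minus strand), a short locus opposite Nnat, the paternally expressed neuronatin gene, held 6 and 4 counts in KO1 and 56 and 50 in KO2. The log2 fold change was -3.43 ± 0.36 (adjusted p 5.02e-07). Nnat on its own strand held 77 and 51 counts in KO1 and 53 and 47 in KO2 and was not called (0.30 ± 0.22). The promoter windows of Nnat and of Tcf7l1, the former at the imprinted locus of largest difference and the latter at the locus of smallest adjusted p among the chromosome 6 genes higher in KO1, are given in the same form, with each CG in capitals and RefSeq coordinates on GRCm38.p6.
Nnat promoter, chr2:157559828-157560127, plus strand: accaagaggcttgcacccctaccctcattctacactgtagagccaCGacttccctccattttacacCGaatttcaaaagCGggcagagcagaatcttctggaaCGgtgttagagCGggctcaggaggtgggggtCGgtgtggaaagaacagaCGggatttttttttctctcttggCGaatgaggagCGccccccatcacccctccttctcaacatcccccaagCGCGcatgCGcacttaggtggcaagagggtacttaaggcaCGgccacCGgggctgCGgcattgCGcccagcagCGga
Tcf7l1 promoter, chr6:72788996-72789295, minus strand: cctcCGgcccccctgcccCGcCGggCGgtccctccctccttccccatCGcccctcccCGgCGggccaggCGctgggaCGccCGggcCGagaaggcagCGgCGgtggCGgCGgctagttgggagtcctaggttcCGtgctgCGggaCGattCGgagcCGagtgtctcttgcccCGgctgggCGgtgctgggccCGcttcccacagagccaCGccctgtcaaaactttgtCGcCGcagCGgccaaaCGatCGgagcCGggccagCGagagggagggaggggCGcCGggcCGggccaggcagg
The Nnat window holds 17 CG and the Tcf7l1 window 34, and 68.6% and 92.3% of the RefSeq promoters hold fewer.

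**Figure D4:**
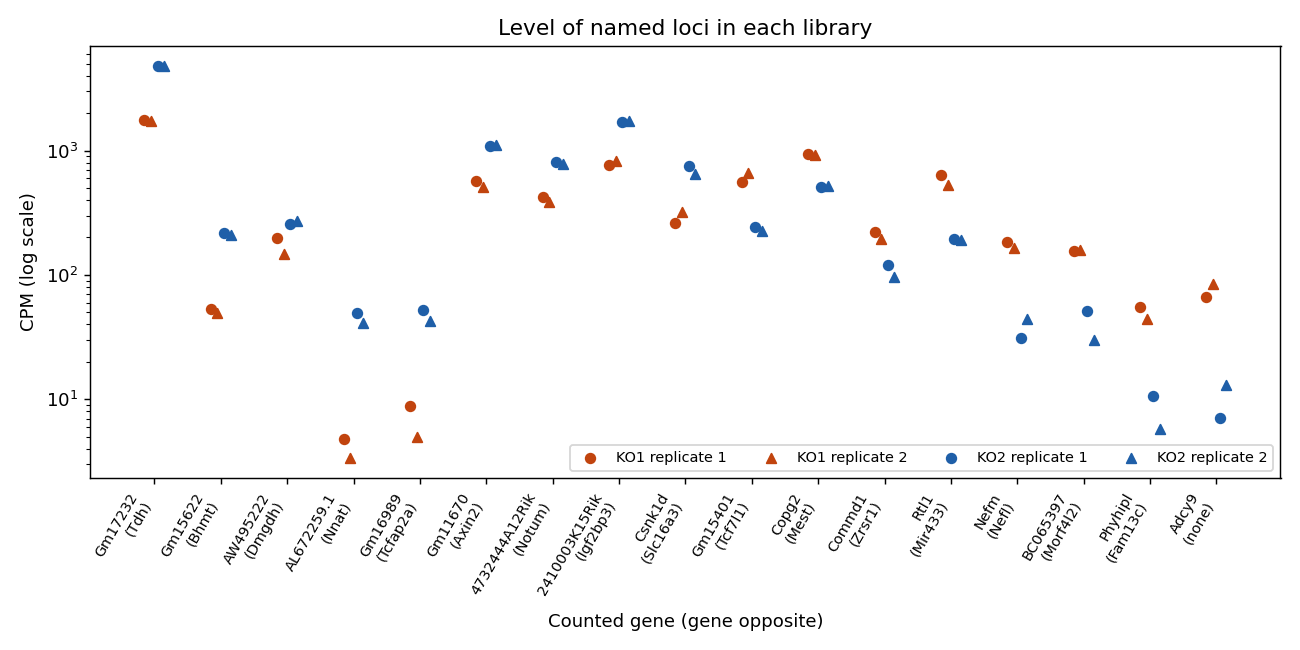
CPM on a log axis of 17 counted genes in each of the 4 libraries, with the gene opposite in brackets and colours for the lines. The KO1 and KO2 points do not overlap at any of them, a condition by which named genes were taken. The gap is widest at AL672259.1 (opposite Nnat), at 3.35 and 4.80 CPM in KO1 and 40.9 and 49.4 in KO2.

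Beyond these lists, the largest differences toward KO2 with a protein-coding gene opposite were at low counts. Gm16989, opposite Tcfap2a, a transcription factor gene of trophoblast and neural crest, held 11 and 6 counts in KO1 and 59 and 52 in KO2 (-2.74 ± 0.33). Gm10684, opposite Amica1, held 3 counts in KO1 and 35 in KO2, a ratio of 12.1 with an exact 95% interval of 3.81 to 61.5. Gm17595, opposite the potassium channel gene Kcnj3, held 16 and 16 against 57 and 49 (-1.77 ± 0.28). Gm16277, opposite Gfra1, a receptor of the growth factor GDNF, held 5 and 7 against 18 and 23 and lost its call without KO1 replicate 1. Gtf2ird2, opposite Ncf1, held 4 and 7 against 29 and 27 (-2.37 ± 0.41); both genes have near-identical copies, and how the authors' counting split fragments among them is uncertain. With no exon opposite, Gm17719 held 7 and 6 against 36 and 37 (-2.52 ± 0.36). Clptm1 lost its call without KO1 replicate 1, Gm17556 without KO1 replicate 1, KO1 replicate 2 or KO2 replicate 1, and Dhx37 in each fit that left out 1 library.

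Toward KO1, the largest difference with a protein-coding gene opposite was Gm13938, opposite Ttn, which encodes the muscle protein titin, with 39 and 47 counts in KO1 and 3 and 3 in KO2 (3.74 ± 0.42, adjusted p 1.10e-06). Neuronal loci were among the others. Nefm, which encodes the medium neurofilament chain and lies opposite Nefl, the gene of the light chain, stood at 183 and 165 CPM in KO1 and 30.9 and 44.2 in KO2 (2.20 ± 0.17, adjusted p 2.54e-09). Gm11149, opposite the neural adhesion gene Ncam1, held 187 and 180 counts against 95 and 101 (0.85 ± 0.13). E130003G02Rik, opposite the glutamate receptor gene Grin1, differed by 0.44 ± 0.11 and lost its call without KO1 replicate 1. In all, 3 of 6 loci opposite genes of the neuroectoderm and neuronal list were higher in KO1 and 1 in KO2, AL672259.1 opposite Nnat, against 7.69% and 20.1% of all genes with an exon opposite. By the counted symbol 2 of 6 were higher in KO1, Nefm and Gbx2, of which Gbx2 lost its call in 3 of the 4 fits that left out 1 library. The neural marker Pax6 held 215 and 208 counts in KO1 and 159 and 196 in KO2.

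Phyhipl, opposite Fam13c, held 69 and 53 counts in KO1 and 12 and 7 in KO2 (2.61 ± 0.32), and Mterfd2, opposite the matrix protein gene Sned1, held 32 and 32 against 5 and 6 (2.46 ± 0.39). D430040D24Rik, opposite Fam178b, held 32 and 21 against 4 and 2 (3.04 ± 0.49). BC065397, opposite Morf4l2, a gene of the MRG family of chromatin proteins with close copies elsewhere, stood at 157 and 160 CPM against 51.2 and 30.3 (1.97 ± 0.18). A330033J07Rik, opposite Id4, an inhibitor of basic helix-loop-helix factors, held 70 and 63 counts against 24 and 11 (1.86 ± 0.29). Gm16191, opposite Pxt1, held 19 and 16 against 6 and 3 and lost its call in 3 of the 4 fits that left out 1 library. These loci are spread over 5 chromosomes, those opposite Sned1 and Fam178b both on chromosome 1.

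With no exon opposite, Adcy9 (chromosome 16, 4287529 to 4420498), an adenylate cyclase gene, stood at 66.5 and 84.6 CPM in KO1 and 7.06 and 13.1 in KO2 (2.88 ± 0.28, adjusted p 1.05e-07). Lgi1, a secreted neuronal protein gene, held 11 and 11 counts in KO1 and 0 in KO2, at least 7.07-fold higher against a floor of 3 counts over the 2 KO2 libraries. The pseudogene Gm14375 on chromosome X held 17 and 14 counts in KO1 and 0 in KO2, at least 9.97-fold higher by the same floor. 1700095A21Rik held 19 and 20 against 3 and 2 (2.85 ± 0.53). Zfp462 held 26 counts in KO1 and 3 in KO2, a ratio of 8.36 (2.56 to 43.2), and lost its call without KO1 replicate 2. In the cAMP list, Cenpo, opposite the adenylate cyclase gene Adcy3, ran toward KO2, with 270 and 261 counts in KO1 and 481 and 526 in KO2 (-0.98 ± 0.08). Adcy3 on its own strand was also called toward KO2, a call lost without KO1 replicate 1 or KO2 replicate 1. With no exon opposite Adcy9, which transcript gave its counts is not known, so its direction was not compared with that of Cenpo.

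Few loci of the pluripotency lists were measured, and by their own symbol at the low counts of the counted strand. None of 8 general pluripotency genes counted this way was called: Sox2 had 92 and 100 counts in KO1 and 66 and 70 in KO2 (0.44 ± 0.17, adjusted p 0.0723). Gm14261, opposite Sall4, a zinc finger factor of ES cells, was higher in KO1 by 0.29 ± 0.07 and lost its call without KO1 replicate 2. Of 3 loci opposite genes on the naive pluripotency list, 2 were higher in KO1: Gm2301 (opposite Tbx3, 0.27 ± 0.07) and Gm16159 (opposite Fgfr1, 0.47 ± 0.13). The latter lost its call without KO1 replicate 1. Fgfr1 is also on the FGF signalling list, so its locus is not specific to naive pluripotency. Of 9 counted by their own symbol, only Socs3 on chromosome 11, a feedback inhibitor of LIF signalling, was called, higher in KO2 (-1.12 ± 0.35, lost without KO1 replicate 2 or KO2 replicate 2). Both loci opposite genes on the formative pluripotency list were higher in KO2, 2410003K15Rik opposite Igf2bp3 on chromosome 6 and Gm17419 opposite Sox4 (-0.47 ± 0.09). Of all tested genes with an exon opposite, 7.69% were higher in KO1 and 20.1% in KO2, and on chromosome 6 52.7% were higher in KO2. With 3 and 2 loci, the naive and formative lists were not compared. Lefty2, a Nodal antagonist gene, held 13 and 13 counts in KO1 and 28 and 33 in KO2 (-1.27 ± 0.32, lost without KO1 replicate 1). The mesoderm genes Eomes and Cdx1 stood at 25 or fewer counts in every library; their calls toward KO2 were lost in 3 and 4 of the 4 fits that left out 1 library.

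The called loci of glucose transport and glycolysis were higher in KO2, except for 1. By the gene opposite, 4 of 5 were higher in KO2, against 20.1% of all genes with an exon opposite: Csnk1d (Slc16a3), Gm12868 (opposite the glucose transporter gene Slc2a1, -0.50 ± 0.06), Gm15441 (opposite Txnip, an inhibitor of glucose uptake, -0.35 ± 0.07) and Gm17327 (opposite the isomerase gene Gpi1, -0.30 ± 0.05). Csnk1d lies on chromosome 11, where 36.9% of genes with an exon opposite were higher in KO2. Gm12868 held 759 and 760 counts in KO1 and 1048 and 1021 in KO2, and Gm17327 held 2924 and 3124 against 3601 and 3594. The fifth, Hcn3 opposite the liver pyruvate kinase gene Pklr, was higher in KO1 at 19 or fewer counts and lost its call in 3 of the 4 fits that left out 1 library. By the counted symbol 3 of 17 were higher in KO2, against 11.8% of all tested genes: Slc2a3 and Tpi1 on chromosome 6 and Pfkp on chromosome 13. Of the 17, 4 lie on chromosome 6 and 2 on chromosome 11, where 31.4% and 23.9% of tested genes were higher in KO2. Slc2a3 held 16 and 20 counts in KO1 and 37 and 54 in KO2. Tpi1 lost its call without KO1 replicate 2, and Pfkp in each fit that left out 1 library.

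Ribosomal protein genes that were called were all higher in KO2. By the gene opposite these were 4 of 12, against 20.1% of all genes with an exon opposite: Tlcd1 (Rpl23a), Nkiras1 (opposite Ube2e1 and Rpl15, -0.70 ± 0.10), Fam69a (Rpl5, -0.53 ± 0.08) and Wdr38 (Rpl35, -0.23 ± 0.04). Of the 12, 2 lie on chromosome 11, where 36.9% of genes with an exon opposite were higher in KO2. By the counted symbol they were 3 of 57, among them Rps15 and Rpl32, at 22 to 86 counts per library. Of all tested genes, 11.8% were higher in KO2. Rps15 lost its call without KO1 replicate 1, and Rpl32 in each fit that left out 1 library. Of the 16 mitochondrial transcripts, mt-Nd6, encoded on the light strand, was called, at 1087 and 1028 CPM in KO1 and 725 and 559 in KO2 (0.72 ± 0.08), and not when the wild type libraries were in the fit (adjusted p 0.309).

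Called loci opposite genes of the chromatin lists were higher in KO2. Of 8 loci opposite Polycomb genes, 3 were higher in KO2, against 20.1% of all genes with an exon opposite, 52.7% of those on chromosome 6 and 36.9% of those on chromosome 11: Gm16706 (Suz12), Gm17629 (Ezh2) and Chadl (opposite L3mbtl2 on chromosome 15, -0.29 ± 0.05), those opposite Suz12 and Ezh2 on chromosomes 11 and 6. Of 4 opposite genes of H3K36 methylation, 2 were higher in KO2: Gm15492, opposite Brpf1 on chromosome 6 (-0.41 ± 0.13, lost without KO1 replicate 2 or KO2 replicate 2), and Gm17659, opposite Morf4l1 (-0.15 ± 0.04, lost without KO1 replicate 1 or KO2 replicate 2). By the counted symbol, Nsd1 alone of 7 was called. Of 9 opposite genes of Mediator and of H3K27 acetylation, 3 were higher in KO2, opposite Med7 and Med13 on chromosome 11 and Med10 on chromosome 13, by -0.25 to -0.32. The loci opposite Med7 and Med13 lost their calls without KO1 replicate 1, the latter also without KO2 replicate 2. Of 8 loci opposite genes of class I deacetylase complexes, 1 was called, Pigl opposite Ncor1 on chromosome 11, and its call was lost without KO1 replicate 1, KO1 replicate 2 or KO2 replicate 2. By the counted symbol, 1 of 19 genes of these complexes was higher in KO2, Sap18, and 1 in KO1, Kdm1a, a histone demethylase gene (1.03 ± 0.31, lost without KO1 replicate 2 or KO2 replicate 1). Over all 27 lists, 14 of 108 loci matched by the gene opposite were higher in KO1 and 38 in KO2. Of all genes with an exon opposite, 7.69% and 20.1% were. Matched by the counted symbol, 20 and 21 of 253 were, against 8.19% and 11.8% of all tested genes. These shares are not matched to the lists for abundance or chromosome. Of genes with an exon opposite, 8.68% were called in the lowest tertile of tested genes by mean CPM and 39.7% in the highest. Whether list loci differ from genes of like abundance and chromosome was not tested.

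The remaining lists held few called members. The shares to set beside them are 7.69% higher in KO1 and 20.1% in KO2 among tested genes with an exon opposite, and 8.19% and 11.8% among all tested genes. Of 5 loci opposite genes of FGF signalling, Gm16263 (opposite Fgf10) and Gm17685 (opposite Fgf15), both growth factor genes, were higher in KO2 at 32 or fewer counts per library, and Gm16159 (opposite Fgfr1) was higher in KO1. The first 2 lost their calls without KO1 replicate 1, KO1 replicate 2 or KO2 replicate 2. Of 8 loci opposite genes of fibroblasts and the extracellular matrix, Gm16033, opposite the metalloproteinase gene Adam19 on chromosome 11, held 389 and 335 counts in KO1 and 480 and 551 in KO2 (-0.56 ± 0.08), Htra2 was also higher in KO2, and Gm15270, opposite the growth factor gene Ctgf, was higher in KO1 (0.47 ± 0.13, lost without KO1 replicate 1 or KO2 replicate 2). Of 4 germline genes counted by their own symbol, Prdm1, which encodes a transcriptional repressor that specifies germ cells, held 19 and 13 counts in KO1 and 4 and 1 in KO2 (2.57 ± 0.60, lost without KO1 replicate 1), and Sycp1, a gene of the meiotic chromosome axis, was called at 0.57 ± 0.19 and lost its call in each fit that left out 1 library. Among 10 stress response genes, Sqstm1 on chromosome 11, an autophagy receptor gene opposite 3010026O09Rik, was alone in being called, with 128 and 131 counts in KO1 and 201 and 211 in KO2 (-0.72 ± 0.12). None of the endoderm, Hox or 2-cell-like genes that could be measured, 2, 1 and 1 by their own symbol, was called.

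At the highest counts, small differences passed the test. Gm17431, opposite the pseudogene Gm15459, held 24013 and 22966 counts in KO1 and 24730 and 27014 in KO2 (-0.19 ± 0.04). Gm9793 (opposite G3bp2, a stress granule protein gene, -0.14 ± 0.04) and 1810014B01Rik (opposite the chaperone gene Hsp90b1, -0.12 ± 0.04) were also higher in KO2. None of the 3 was called when scaling factors came from genes with an exon opposite, and Gm9793 and 1810014B01Rik lost their calls without KO1 replicate 1 or KO2 replicate 2, 1810014B01Rik also without KO1 replicate 2. Toward KO1, Gm17300, opposite the small nucleolar RNA host gene Snhg3, stood at 4442 and 4671 CPM in KO1 and 3553 and 3221 in KO2 (0.43 ± 0.05). Gm20417, opposite the nuclear long RNA gene Malat1, stood at 2897 and 2468 CPM against 1853 and 1883 (0.52 ± 0.06). Kctd18, opposite the cohesin protector gene Sgol2 (0.24 ± 0.05), lost its call without KO1 replicate 2, and Gm17675, opposite Zfp106 (0.16 ± 0.04), without KO1 replicate 2 or KO2 replicate 1.

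The calls of genes with and without an exon opposite were split unequally between the directions. On the other chromosomes, 2021 tested genes had an exon overlap of at least 50 bases on the other strand; 179 of them were higher in KO1 and 327 in KO2, with a median log2 fold change of -0.026. Of 1740 with no exon opposite, 174 were higher in KO1 and 19 in KO2, with a median of 0.225. The kinds of gene also differ in abundance. In the highest tertile of all tested genes by mean CPM, 1090 genes of the other chromosomes had such an overlap and 219 did not, with medians of -0.091 and 0.166; in the middle tertile the medians were 0.065 and 0.224, and in the lowest 0.210 and 0.235. On chromosomes 6 and 11 both kinds of gene leaned toward KO2: with an exon opposite, 58 of 110 and 97 of 263 were higher in KO2, and with none 13 of 122 and 17 of 234. Genes with no exon opposite took 11.4% and 11.5% of the counts outside AY036118 in the KO1 libraries and 9.43% and 9.57% in the KO2 libraries. This difference moves with the calls toward KO1 at genes with none opposite, and its part in them was not tested. With scaling factors from genes with an exon opposite only, an alternative chosen after seeing the data, 532 genes were higher in KO1 and 396 in KO2, so the split of all calls between the directions depends on the scaling.

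**Figure D5:**
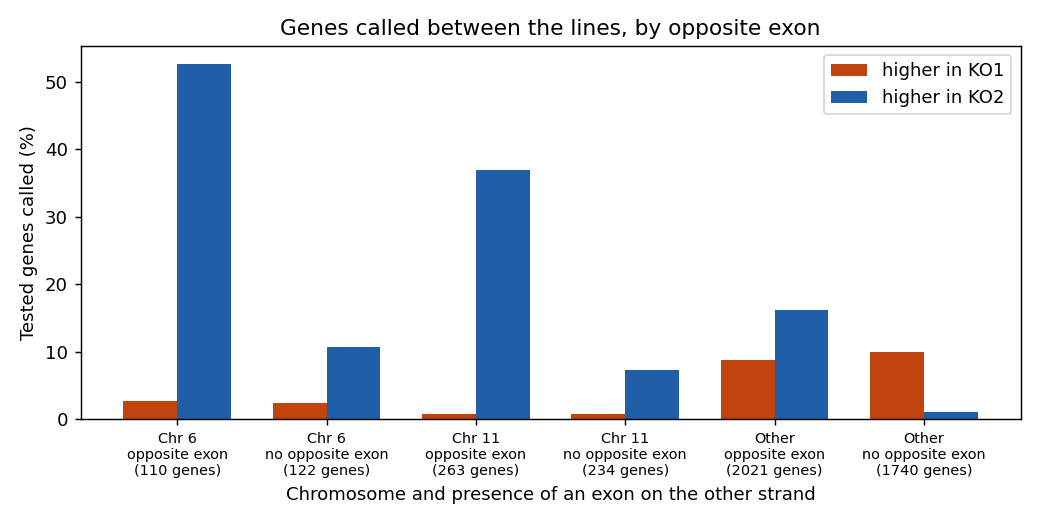
Percentage of tested genes called higher in KO1 and higher in KO2, for genes with an exon of at least 50 bases opposite and with none, on chromosome 6, chromosome 11 and the others. Calls toward KO2 reach 52.7% of chromosome 6 genes with an exon opposite and 1.09% of the other chromosomes' genes with none.

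Pairs of overlapping genes allow both strands of a locus to be set side by side. Both members were tested in 790 pairs and both called in 60, of which 43 differed in the same direction and 17 in opposite directions. On chromosomes 6 and 11, 18 of 19 pairs with both called differed the same way, and on the others 25 of 41. Tdh with Gm17232, Loxl3 with Htra2, Casp9 with Cela2a and Mphosph8 with Gm16973 differed the same way. The 17 that differed in opposite ways included Mest with Copg2, Gnas with AF085738, Cdk4 with Tspan31, Lsr with Gm4673 and Rad54l with Lrrc41.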

How the data were processed

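The values deposited by the authors are raw counts, unnormalized, in 1 table per library. Per the file headers, featureCounts 2.0.1 assigned paired fragments to exons of GENCODE mouse version 1 on mm9, summed by gene, with its strand option at 1. Per the submitters' processing notes, the tools included STAR 2.5.4b, Trim Galore 0.6.4, featureCounts 2.0.0, bedtools 2.92.2, Bowtie2 and GATK 4.1.4.0, without roles. No source used here states whether the libraries keep strand. Spans and strands of all 37310 genes equalled the annotation.

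The 4 libraries of KO1 and KO2 were fitted alone in R 4.3.3 with edgeR 4.0.16 (filterByExpr with a minimum count of 10, TMM, robust quasi-likelihood F-test, 2 residual degrees of freedom, common biological coefficient of variation 4.15%). A gene was called at a Benjamini-Hochberg adjusted p under 0.05 over all 4702 tested genes. Errors of log2 fold changes are SEs. Across libraries, the median count of tested genes was 25 to 29. The gene opposite is the gene on the other strand whose exons share the most bases, 50 or more, with those of the counted gene, found with bedtools 2.31.1. CPM and shares were computed here. Intervals and floors (3 counts over a line) cover counting error only.

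The comparison, the 27 gene lists and the tests were chosen with earlier results of these data known. Named genes outside chromosomes 6 and 11 are the 8 largest called differences each way with a protein-coding gene opposite, the 5 largest with none and the 4 most abundant, with at least 5 CPM in the higher line. On chromosomes 6 and 11 they are the 5 largest each way and the 3 most abundant. Nsd1 and up to 3 called members of each list were added. Except for Nsd1, genes taken by this rule had to have both libraries of one line beyond both of the other. That separation is therefore a condition of the choice and not a result. Others named are members of a list, a pair or a stretch described, and were chosen after their values were seen, as was the choice of promoters. The steps were tested on simulated counts. Alternatives were other scalings, filters and tests, all 6 RNA libraries, a replicate block, each library left out, and overlap of any length. Some genes taken by the rule are not reported here.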

Additional observations from a re-analysis of the deposited data

How the results depend on the processing

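In the alternatives that gave a value, 12 to 14 for a named gene and 12 for each chromosome's median relative to all genes, none of these reversed its direction. DESeq2 called 461 genes, all among the 939: 113 higher in KO1 and 348 in KO2, with 3 on chromosome 6 and 1 on chromosome 11 higher in KO1, and 109 and 204 higher in KO1 and KO2 on the others. Against a minimum log2 change of 0.5, the calls were 79 and 110: 3 and 25 on chromosome 6, 1 and 47 on chromosome 11, and 75 and 38 on the others. With scaling from genes with an exon opposite, 7 chromosome 11 genes were higher in KO1 and 224 genes of the other chromosomes in KO2, and the median of all genes moved by 0.094. The share of calls higher in KO1, 41% as reported, was 57.3% there, 32.2% with scaling from genes outside chromosomes 6 and 11, 33% with no filter, where the medians relative to all genes were -0.341 on chromosome 6 and -0.279 on chromosome 11 (-0.410 and -0.329 as reported), and 24.5% with DESeq2. Leaving out 1 library gave 181 to 291 genes higher in KO1 and 356 to 468 in KO2: 3 to 7 and 51 to 64 on chromosome 6, 2 to 3 and 99 to 116 on chromosome 11, and 175 to 281 and 201 to 291 on the others. The lowest of these counts came without KO1 replicate 1 or 2, and the 2 higher in KO1 on chromosome 11 also without KO2 replicate 1. These fits had 1 residual degree of freedom, and the lone library of a line was assumed to vary like the other line. The chromosome 11 median relative to all genes then ran from -0.357 to -0.344. With AY036118 kept in the total, the shares of counts differed by -0.832 percentage points on chromosome 6 and -2.373 on chromosome 11, against -1.149 and -3.264. The causes of these changes were not tested. Of 108 named genes, 65 kept their call in all 4 fits that left out 1 library, and 57 lost it in the test against a log2 change of 0.5. DESeq2 gave no adjusted p to 24 and did not call 20, of which only Gm2301 had kept its call in those 4 fits.

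The labels give the lines the same replicate numbers but no pairing. Same-numbered libraries did not deviate together (r = -0.030 over the tested genes), and a replicate block called 465 and 629 genes, 938 of them among the 939. With a median count of 25 to 29 among tested genes, at most genes small differences were not detectable at this depth.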
